A study of Homo sapiens with 12 samples.

Results

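The cells described here are 488 non-cycling Nalm-6 cells of the library labelled RUNX1 that held no transcript of FCER1G and almost none of the chemokine genes CCL3 and CCL4. They were chosen by measured values. A cell passed when it had more than 2000 and fewer than 6000 detected genes and under 20% of its UMIs (molecules counted once) from mitochondrial genes. P was the sum of the UMIs of MKI67, TOP2A, RRM2, TYMS, CENPF and CCNB1, the 6 cell cycle genes of the rule, per 10000 UMIs of the cell, and the 2400 of 4800 cells with the lowest P were called non-cycling. Members were the non-cycling cells with 0 UMIs of FCER1G, fewer than 2 UMIs of CCL3 and CCL4 together and no UMI of C1orf141, LINC00967 or STON1-GTF2A1L. The 488 members were 20.3% of the 2400 non-cycling cells (18.7 to 22.0, exact Clopper-Pearson interval), of 10398 passing cells in both libraries.

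The Nalm-6 line was grown from a human leukemia of B-lymphoid precursors, and single-cell RNA-seq on the 10x Genomics platform compared 1 library with induced RUNX1 to 1 control library. The library labelled RUNX1 came from cells that carried the Tet-On regulator and a pLVX response vector with RUNX1 cDNA, and induction lasted 72 h with 500 ng/ml doxycycline. The control library is labelled empty vector and 72 h, its title names DMSO, and no doxycycline is stated for its cells, so RUNX1, the inducer, the vector and the culture cannot be told apart between the libraries. Each library was 1 sample, so no test between conditions or between groups of cells was possible. No difference has a replicate check, and every interval printed is at the 95% level and reflects counting error alone.

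Pre-B cells rearrange their immunoglobulin genes with the RAG1 and RAG2 recombinase and with DNTT, which adds bases at the joins, while IL-7 receptor signalling and MYB keep precursor cells dividing. Cells that leave the cycle commonly lower MYC-driven ribosome production and raise genes under FOXO control. FCER1G is the shared signalling chain of several Fc receptors, which B-lineage cells usually lack, and CCL3 and CCL4 are chemokines released by activated leukocytes. RUNX1 is a DNA-binding factor of blood cell development.

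Members carried the transcripts of B precursors. All 12 B precursor markers in the annotation were detected, from 60.3 CPM (UMIs of a gene per 1000000 UMIs of the group) for BLNK, an adaptor of the pre-B receptor, to 2733 CPM for VPREB1, a chain of the surrogate light chain. The summed level of these markers was 7836 CPM in members, against 6867 CPM in the other non-cycling cells, 7443 CPM in the cycling cells (the 2400 with the highest P) and 5414 CPM in control cells of equally low P. Some defining genes of other cell types were at 0 UMIs in members, among them CD3D, CD3E and CD3G of T cells and NCAM1 and GZMB of NK cells. So were S100A8, S100A9 and MPO of myeloid cells, FCER1A and CPA3 of mast cells, and all 8 erythroid markers. Other genes of the T cell, NK cell, myeloid and mast cell lists were detected. The 8 mast cell and basophil markers summed to 3.59 CPM in members and 6.29 CPM in the other non-cycling cells, nearly all of it KIT, a growth factor receptor, with 26 UMIs in members. The 14 myeloid markers summed to 40.5 CPM in members and 82.9 CPM in the other non-cycling cells, mostly CST3 (30.2 and 71.0 CPM). The 9 NK cell markers, mostly NKG7, summed to 23.8 and 33.8 CPM. The 11 T cell markers summed to 155 CPM in members and 57.7 CPM in the other non-cycling cells, of which IL7R, also a receptor of B precursors, gave 132 and 32.6 CPM. ZAP70 of that list had 12.1 and 7.23 CPM and TRAC 9.70 and 17.6 CPM. The 7 plasma cell markers in the annotation summed to 858 CPM in members and 846 CPM in the other non-cycling cells. Of these sums XBP1 gave 663 and 778 CPM and MZB1 136 and 25.3 CPM.

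Cell cycle genes that the rule did not read went with the label non-cycling. The cells were split by P, a sum of genes of the same phases, so this describes the label and is no separate check of it. Over the G2/M list, which leaves out the genes of P, the median log2 ratio of members over the cycling cells was -3.42, with 48 of 49 measured genes lower by 0.5 or more, against 11.6% of all 7726 genes measured in this comparison, and over the S phase list it was -2.15, with 38 of 38 lower. P itself was 0 in 299 members (61.3%) and in 1603 of the 1912 other non-cycling cells (83.8%). Members were therefore non-cycling by the rule but less often without any UMI of the 6 genes, and they also held more UMIs per cell.

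RUNX1 itself went against the label of the library. It had 31.2 CPM in members (235 UMIs), against 26.9 CPM in the other non-cycling cells, and their log2 ratio of 0.22 had an interval that held 0 (-0.01 to 0.44). The cycling cells stood at 31.8 CPM and the control cells of equally low P at 81.5 CPM, which put members below the control (log2 ratio -1.39, -1.70 to -1.06). The sources do not say whether the cDNA holds the 3′ end of the transcript that this assay reads, so the library is called the library labelled RUNX1 throughout, and no direction below is read as a response to RUNX1.

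Members were deeper than the cells they are set against. The median member held 14992 UMIs and 3381.5 genes, against 10346 UMIs and 2867 genes in the other non-cycling cells, 19052 UMIs in the cycling cells and 10159 UMIs in the 147 control cells of equally low P. Mitochondrial UMIs were 14.6% in the median member and 13.1% in the median other non-cycling cell. The 2 libraries shared 12 barcodes, and none was a member.

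The limits of the rule cut through continuous values. The highest P of a non-cycling cell was 1.0409 and the lowest P of a cycling cell was 1.0411 UMIs per 10000. Among members, 50 held exactly 1 UMI of CCL3 and CCL4, and 221 of the 715 cells placed outside for their chemokines held exactly 2. A single FCER1G UMI was the count of 149 of the 706 cells placed outside for FCER1G alone, whose median was 4 UMIs. A single UMI of the C1orf141 set was held by 139 of the 491 cells placed outside for it. The genes of the rule fixed these 4 groups, so their levels are no finding: CCL3 was at 3.06 CPM in members and 103 CPM in the other non-cycling cells, and FCER1G at 0 and 404 CPM. In the cycling cells the same limits on FCER1G, the chemokines and the C1orf141 set were met by 1819 of 2400 cells (75.8%).

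The share of members rose with the depth of the cell. Among 600 non-cycling cells with 4200 to 8482 UMIs 5.33% were members (3.68 to 7.45), and the next 600 held 8.67%. Members were 22.8% of the 600 cells with 11249 to 14543 UMIs and 44.5% of the 600 deepest cells (40.5 to 48.6). FCER1G, a gene of the rule, was at 0 in 16.0% of the shallowest 600 cells and 54.8% of the deepest 600.

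**Figure D1:**
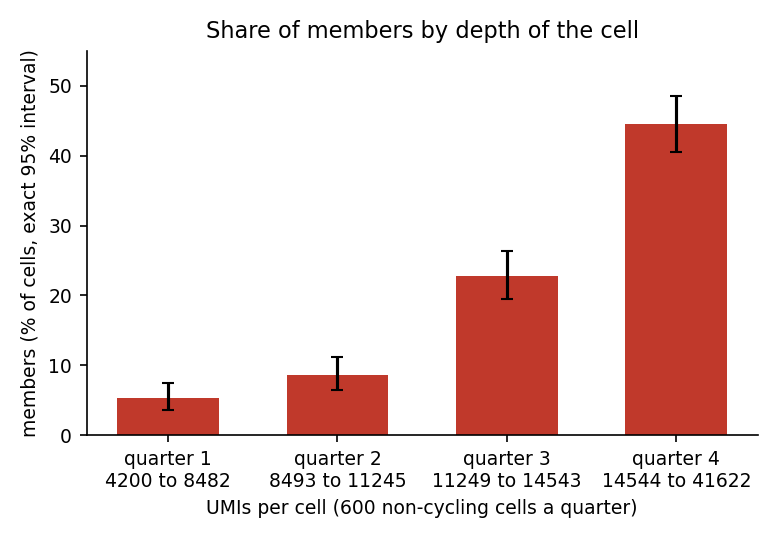
Share of members (y axis, % of cells with exact 95% intervals) in 4 equal groups of 600 non-cycling cells ordered by UMIs per cell (x axis). The share is 5.33% in the shallowest and 44.5% in the deepest group.

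Across all genes, differences between members and the other non-cycling cells were mostly small, and more of the larger ones were lower in members. A gene was measured when 1 of these groups had 10 CPM or more of it. A gene near this floor could therefore pass through the group where it was higher. Of 7917 measured genes, outside those of the rule, 84 were at least 2-fold higher in members (1.06%) and 286 at least 2-fold lower (3.61%). By the measure used for lists, a log2 ratio at least 0.5 away from 0, 504 were higher (6.37%) and 1302 lower (16.4%), and over all 7917 genes the log2 ratio had a median of -0.12. Scaling by TMM centred that median and gave 118 genes at least 2-fold higher and 220 lower. When both groups were weighted to the same spread of UMIs per cell, 46 genes stood 2-fold or more higher and 103 as far below, so depth moved with the number of such genes, and several named genes are given below with their ratio at the same spread.

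Metallothioneins, small proteins that bind zinc and copper and are induced by metals, had some of the highest ratios in members. MT1X (chromosome 16, 56716382 to 56718108, GRCh37) had 1572 CPM in members, against 250 CPM in the other non-cycling cells, a log2 ratio of 2.65 (2.60 to 2.70). MT1H (chromosome 16, 56703726 to 56705041) had 383 CPM in members and 53.5 CPM in the other non-cycling cells, a log2 ratio of 2.84. MT1G had 782 CPM in members and 174 CPM in the other non-cycling cells. Members did not stand above the rest of the experiment in these genes: the cycling cells had 1660 CPM of MT1X and the control cells of equally low P had 3486 CPM, so the other non-cycling cells were the low group. MT2A followed with 91.8 CPM in members and 28.3 CPM in the other non-cycling cells. MT1F, in the same cluster, was nearly level, at 48.6 CPM in members and 43.2 CPM in the other non-cycling cells (log2 ratio 0.17, -0.01 to 0.35), and in the control cells of equally low P at 43.0 CPM. At the same spread of UMIs per cell the log2 ratios were 1.95 for MT1X, 1.97 for MT1H and 1.52 for MT1G. These genes are near-identical copies, so reads may be divided between them in ways the counts cannot show, and they are described as a group because of their values.

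The promoters of MT1X, MT1H and MT2A, which differed in the same direction, are shown because these genes are known to share the metal response element, the site of the zinc-sensing factor MTF1. MT1G, which differed in the same direction, is named only. Capitals mark each match to its core on either strand, written TGCACNC or TGCGCNC, and none of the matches overlap. The sequences run 5′ to 3′ from 250 bases before to 50 bases after the start of each gene, from RefSeq on GRCh38.p14. MT1X lies at chr16:56682220-56682519, MT1H at chr16:56669564-56669863 and MT2A at chr16:56608334-56608633, all on the plus strand.
MT1X: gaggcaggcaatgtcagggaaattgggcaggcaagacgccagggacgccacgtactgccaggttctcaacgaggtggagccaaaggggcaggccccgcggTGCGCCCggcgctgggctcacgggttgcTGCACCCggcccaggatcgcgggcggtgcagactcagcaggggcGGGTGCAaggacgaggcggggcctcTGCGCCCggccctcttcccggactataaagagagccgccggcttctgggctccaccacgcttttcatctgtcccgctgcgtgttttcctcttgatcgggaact
MT1H: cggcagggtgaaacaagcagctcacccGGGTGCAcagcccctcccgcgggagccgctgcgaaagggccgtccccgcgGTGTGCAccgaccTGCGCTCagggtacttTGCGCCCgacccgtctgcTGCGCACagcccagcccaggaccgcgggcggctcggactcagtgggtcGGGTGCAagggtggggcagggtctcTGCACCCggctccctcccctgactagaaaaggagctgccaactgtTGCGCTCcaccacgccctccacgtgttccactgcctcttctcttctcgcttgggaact
MT2A: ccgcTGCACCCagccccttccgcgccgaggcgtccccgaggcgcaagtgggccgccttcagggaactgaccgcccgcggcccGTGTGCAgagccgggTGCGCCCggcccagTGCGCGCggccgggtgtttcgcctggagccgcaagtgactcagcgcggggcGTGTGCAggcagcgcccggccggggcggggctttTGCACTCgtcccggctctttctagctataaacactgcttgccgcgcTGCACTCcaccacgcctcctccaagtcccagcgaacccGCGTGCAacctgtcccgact

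MT1X held 4 matches, MT1H 8 and MT2A 8. At least 4 matches were held by 0.601% of all 35116 promoters of this length and at least 8 by 0.0199%, which was 7 promoters. A match is a description of these letters, and binding was not measured.

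Several genes of immunoglobulin gene rearrangement and precursor identity were higher in members. Of 11 measured genes of the list of B precursor and V(D)J genes, 6 were higher by 0.5 or more and 1 lower. Of all genes 6.37% were higher and 16.4% lower. The median log2 ratio of the list was 0.53, against -0.12 over all genes. DNTT, the template-free polymerase of V(D)J joining, had 137 CPM in members and 31.4 CPM in the other non-cycling cells (log2 ratio 2.13, 1.99 to 2.27). RAG1, the catalytic subunit of the recombinase, had 15.4 CPM in members and 3.05 CPM in the other non-cycling cells. RAG2, its partner, had 24.2 CPM in members, against 8.36 CPM, and the annotated spans of the RAG genes overlap on opposite strands. IL7R, a chain of the IL-7 receptor that is not on this list, had 132 CPM in members and 32.6 CPM in the other non-cycling cells. CD99, a surface glycoprotein, was the list member that was lower, with a log2 ratio of -1.15. All of DNTT, RAG1 and IL7R stood higher still in the cycling cells (272, 35.6 and 180 CPM) and in the control cells of equally low P (583, 50.7 and 300 CPM). RAG2 was near level in the cycling cells (22.1 CPM) and higher in those control cells (46.2 CPM). Of the 116 RAG1 UMIs of members, 101 lay in cluster 2, 1 of 4 clusters of members described below. Outside cluster 2 members had 2.94 CPM of RAG1, no more than the other non-cycling cells. DNTT was there at 60.9 CPM and IL7R at 62.6 CPM. RAG1 and RAG2 reached 10 CPM in members but not in the other non-cycling cells.

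Chains and adaptors of the pre-B receptor included genes on both sides. Of 17 measured genes, 3 were higher by 0.5 or more and 3 lower, against 6.37% higher and 16.4% lower of all genes, with a median of 0.12. VPREB3, which assists assembly of the receptor, had 633 CPM in members, 322 CPM in the other non-cycling cells, 389 CPM in the cycling cells and 270 CPM in the control cells of equally low P, so members had the highest level of these groups. BLNK had 60.3 CPM in members and 29.4 CPM in the other non-cycling cells. CD79A, a signalling chain of the B cell receptor, was lower, with 288 CPM in members and 581 CPM in the other non-cycling cells (log2 ratio -1.01, -1.08 to -0.95), while the cycling cells had 162 CPM. The next 3 genes, MZB1, CD22 and BACH2, are not on this list. MZB1, an endoplasmic reticulum cofactor of immunoglobulin folding, had 136 CPM in members and 25.3 CPM in the other non-cycling cells. CD22, an inhibitory B cell receptor, had 15.8 CPM in members and 4.65 CPM in the other non-cycling cells. BACH2, a repressor that holds back plasma cell fate, had 67.6 CPM in members and 24.8 CPM in the other non-cycling cells.

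**Figure D2:**
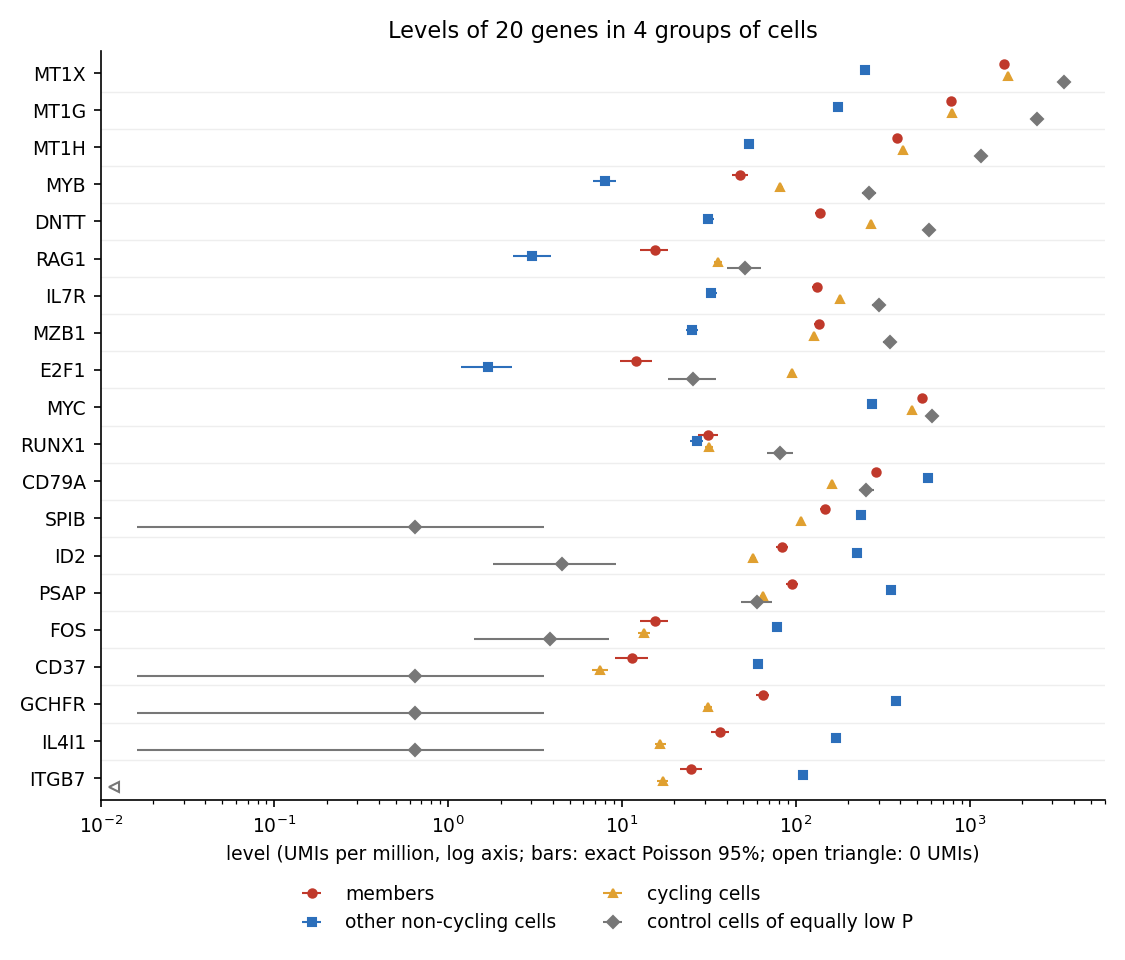
Levels of 20 genes (rows) in members, the other non-cycling cells, the cycling cells and control cells of equally low P (x axis, CPM on a log axis, bars exact Poisson 95% intervals, an open triangle for 0 UMIs). For MT1X members lie at 1572 CPM near the cycling cells, and for GCHFR at 64.6 CPM, between the cycling cells and the other non-cycling cells.

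Genes of growth were higher in members although the cells were chosen for low P. Of 26 measured MYC and nucleolar genes, which serve ribosome production, 19 were higher by 0.5 or more and 0 lower, with a median log2 ratio of 0.62. Of all genes 6.37% were higher and 16.4% lower. MYC had 531 CPM in members and 274 CPM in the other non-cycling cells, against 469 CPM in the cycling cells. ODC1, the entry enzyme of polyamine synthesis and a MYC target, had 196 CPM in members and 91.2 CPM in the other non-cycling cells. TFRC, the transferrin receptor, had 35.2 CPM in members and 15.8 CPM in the other non-cycling cells. Over the cycling cells the median of the list was -0.20, with 3 of 27 genes lower by 0.5 or more, a share near the 11.6% of all genes, and over the control cells of equally low P it was -0.48. Of 13 heat shock genes 5 were higher and 1 lower than in the other non-cycling cells, against the same 6.37% and 16.4% of all genes. HSPD1, the mitochondrial chaperonin, had 502 CPM in members and 263 CPM in the other non-cycling cells.

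Blood progenitor regulators were few but among the largest ratios. Of 14 listed genes 4 were measured, and 3 of these were higher by 0.5 or more, against 6.37% of all genes, with a median of 1.39. MYB and LMO2 reached 10 CPM in members but not in the other non-cycling cells, so they could only count as higher. The count and the median therefore do not describe the list as a whole. MYB, needed for precursor growth, had 47.8 CPM in members and 7.94 CPM in the other non-cycling cells (log2 ratio 2.59, 2.32 to 2.86). LMO2, a bridging factor of early blood cells, had 12.0 CPM in members and 2.54 CPM in the other non-cycling cells. The control cells of equally low P had 264 CPM of MYB, which left members 2.47 lower on the log2 scale. Members outside cluster 2, described below, had 21.5 CPM of MYB.

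Some genes that prepare S phase were higher in members. Of 21 measured S phase genes, 8 were higher by 0.5 or more and 1 lower, against 6.37% higher and 16.4% lower of all genes, and the other 12 were within 0.5, with a median of 0.32. UHRF1, which carries DNA methylation through replication, had the largest ratio on this list. It had 23.5 CPM in members and 6.20 CPM in the other non-cycling cells (log2 ratio 1.92). MCM4 (1.07) and CDCA7 (0.81) followed. UHRF1 and MCM4 reached 10 CPM in members but not in the other non-cycling cells. E2F1 and CDT1 are not on this list and were named for being among the 12 highest ratios. E2F1, a factor that switches on S phase genes, had 12.1 CPM in members (91 UMIs) and 1.69 CPM in the other non-cycling cells (36 UMIs), a log2 ratio of 2.84 (2.27 to 3.44). CDT1, which licenses replication origins, had 13.2 CPM in members and 2.91 CPM in the other non-cycling cells. The cycling cells had far more, with 94.7 CPM of E2F1 and 114 CPM of CDT1. G2/M genes were near level, with a median of 0.14 and 0 of 18 higher and 1 lower by 0.5 or more. P moved with these genes, being above 0 in more of the members, and at the same spread of P the log2 ratio of E2F1 was 2.36, that of CDT1 1.78 and that of UHRF1 1.45.

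Genes of quiescence were lower in members. Of 15 measured FOXO and quiescence genes, 0 were higher and 11 lower by 0.5 or more, against 6.37% higher and 16.4% lower of all genes. The median log2 ratio was -0.67. The difference was largest against the cells of the C1orf141 set, where 14 of 15 were lower (median -1.06, 28.45% of all genes lower). Against the FCER1G cells 5 of 13 were lower (-0.43, 11.9% of all genes). Against the chemokine cells 7 of 14 were lower (-0.56, 17.2% of all genes). YPEL3, a small protein linked to growth arrest, had 56.5 CPM in members and 178 CPM in the other non-cycling cells (log2 ratio -1.66, -1.81 to -1.51). FBXO32, a ubiquitin ligase under FOXO control, had 9.57 CPM in members and 40.4 CPM in the other non-cycling cells, and PIK3IP1, an inhibitor of PI3 kinase, 2.26 and 10.2 CPM. FBXO32 was at 84.9 CPM in the C1orf141 set cells and at 20.4 and 30.7 CPM in the FCER1G and the chemokine cells. TSC22D3, a glucocorticoid-induced gene, had 10.5 CPM in members and 31.9 CPM in the other non-cycling cells. It was named from the list of glucocorticoid receptor and targets, where 1 of 11 measured genes was higher and 5 lower by 0.5 or more. CDKN2D, an inhibitor of CDK4 and CDK6, had 36.9 CPM in members and 81.7 CPM in the other non-cycling cells. It was named from the list of cyclins, CDKs and CDK inhibitors, where 5 of 13 measured genes were higher and 3 lower, with a median of -0.06. At the same spread of UMIs per cell, YPEL3 kept a log2 ratio of -0.85 and FBXO32 one of -1.15. Over the cycling cells the median of the FOXO and quiescence list was 0.61, so members lay between the cycling and the other non-cycling cells.

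Some lysosome, immediate early and adhesion genes were also lower, in each list a larger share than the 16.4% of all genes, while the rest of these lists was mostly within 0.5. Of 14 measured lysosome genes 7 were lower by 0.5 or more and 0 higher, with a median of -0.50: PSAP, the precursor of the saposins, had 95.2 CPM in members and 354 CPM in the other non-cycling cells, and CTSZ, a cathepsin, 13.6 and 55 CPM. LGMN, the lysosomal protease legumain, is not on this list. It had 6 UMIs in members (0.797 CPM) and 15.3 CPM in the other non-cycling cells, the lowest ratio among the named genes outside the rule (log2 -4.26, -5.72 to -3.12). Of the 325 LGMN UMIs of the other non-cycling cells, 241 lay in the C1orf141 set cells (45.1 CPM). The log2 ratio of LGMN was -2.84 over the FCER1G cells and -2.60 over the chemokine cells. Of 15 immediate early genes 7 were lower and 1 higher, with a median of -0.47. FOS, a subunit of the AP-1 factor, had 15.4 CPM in members and 78.1 CPM in the other non-cycling cells, while the phosphatase gene DUSP1 was the one that was higher (log2 ratio 0.85). Of 10 adhesion genes 4 were lower and 0 higher, among them ITGB7, an integrin chain of gut homing, with 25.1 CPM in members and 109 CPM in the other non-cycling cells, and CD44, the hyaluronan receptor, with 9.03 and 22.8 CPM. Among surface receptors of B cells 5 of 11 were lower and 3 higher, against 16.4% lower and 6.37% higher of all genes. CD37, a tetraspanin, had 11.4 CPM in members and 60.9 CPM in the other non-cycling cells. CD28, better known as a T cell co-receptor and not on this list, had 4.65 and 31.0 CPM.

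**Figure D3:**
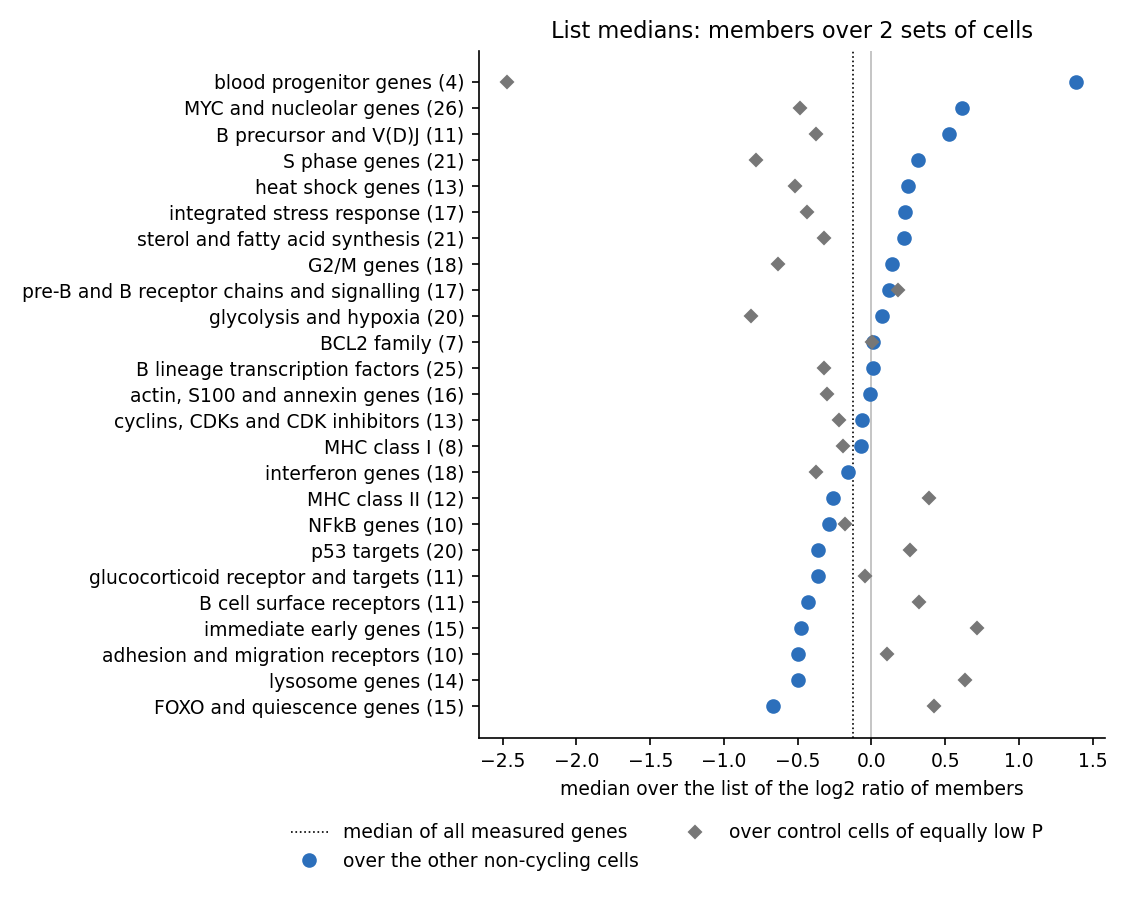
Median log2 ratio of members over the other non-cycling cells (circles) and over control cells of equally low P (diamonds) for each list with 4 or more measured genes (rows, number measured over the other non-cycling cells in brackets). The median of all measured genes over the other non-cycling cells is the dotted line at -0.12, and the blood progenitor list lies at 1.39 and the FOXO and quiescence list at -0.67.

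Genes chosen as highest in the library labelled RUNX1 over the control were lower in members than in the other non-cycling cells. The list of 18 such genes, chosen from earlier results of these cells and therefore no independent evidence, had a median of -2.10. All 18 were lower by 0.5 or more, against 16.4% of all genes. A list of genes lowest over the control, chosen in the same way, went the other way. Of its 8 measured genes 7 were higher by 0.5 or more and 0 lower, with a median of 1.84. GCHFR, the feedback regulator of GTP cyclohydrolase, had 64.6 CPM in members, against 379 CPM in the other non-cycling cells and 31.1 CPM in the cycling cells (log2 ratio of members over the other non-cycling cells -2.55, -2.69 to -2.42). IL4I1, an amino acid oxidase, had 36.7 CPM in members and 171 CPM in the other non-cycling cells. ID2, an inhibitor of helix-loop-helix factors, had 83.4 CPM in members and 225 CPM in the other non-cycling cells. SPIB, an ETS factor of B cells, differed least of these, with 147 CPM in members and 238 CPM in the other non-cycling cells (log2 ratio -0.70). CD96, an immunoglobulin family receptor of T and NK cells, is not on the list of 18 and was not lower. It had 62.6 CPM in members and 53.8 CPM in the other non-cycling cells.

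Set against the control cells of equally low P, members still carried these genes. Of 7730 measured genes, 349 were at least 2-fold higher in members (4.51%) and 310 at least 2-fold lower (4.01%), with a median of -0.10. SPIB had 1103 UMIs in members and 1 UMI in the 147 control cells (147 against 0.642 CPM, log2 ratio 7.83, 5.35 to 13.1). GCHFR had 486 UMIs in members and 1 in the control cells (log2 ratio 6.65, 4.17 to 12.0), and CYTIP, a regulator of integrin adhesion, 452 and 1. ITGB7 had 189 UMIs in members and 0 in the control cells, which makes it at least 13.0-fold higher against a floor of 3 UMIs over the group. In the other direction GNG11, a G protein gamma subunit, had 1.59 CPM in members and 53.9 CPM in the control cells (log2 ratio -5.08), and EGFL7, a secreted factor, 5.18 and 57.1 CPM. Totals that leave out mitochondrial and ribosomal protein genes turned the median to 0.09 and gave 798 genes higher and 269 lower, a setting chosen after the data were seen, so the balance of directions in this comparison rests on the scaling.

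Members differed from each of the 3 kinds of other non-cycling cells. MT1X was at 1572 CPM in members, 308 CPM in the FCER1G cells, 162 CPM in the chemokine cells and 294 CPM in the cells of the C1orf141 set. MYB was at 47.8 CPM in members and at 10.9, 3.55 and 9.93 CPM in these 3 kinds, and GCHFR at 64.6 CPM in members and at 338, 423 and 377 CPM. Other genes did not set members apart from all of them. CD96 was at 62.6 CPM in members and 183 CPM in the C1orf141 set cells, but at 11.8 and 9.39 CPM in the FCER1G and the chemokine cells. SPIB was at 147 CPM in members, above the 107 CPM of the C1orf141 set cells and below the 283 and 280 CPM of the FCER1G and the chemokine cells. VPREB1 was at 2733 CPM in members, with 3505 CPM in the FCER1G cells, 3556 CPM in the chemokine cells and 1608 CPM in the C1orf141 set cells. The count of genes at least 2-fold lower in members was 186 of 7789 against the FCER1G cells, 329 of 7889 against the chemokine cells and 680 of 8147 against the C1orf141 set cells. The counts at least 2-fold higher were 77, 157 and 179 in the same order.

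Of 67 named genes past 2-fold outside the rule, 6 had a value of the other sign in 4 equal groups of cells by UMIs, which were 7 values among the 255 with UMIs on both sides, each with an interval that held 0. TP53INP1, a p53 target, had log2 ratios of 0.24 and 0.20 in the 2 shallowest groups, against -1.26 over all depths, and IL18RAP, a chain of the IL-18 receptor, 0.11 in the shallowest, against -2.75. SLAMF1, an adhesion receptor of lymphocytes, was at -0.03 in the shallowest 600 cells, against -2.39. The others were S100A4, KLF9, PDK1 and SMAGP, and the genes given next kept their direction in each group. Among the deepest 600 cells, with 267 members and 333 others, MT1X was at 1959 CPM in members and 544 CPM in the others, and among the shallowest 600, with 32 members and 568 others, at 712 and 67.6 CPM. DNTT was at 153 CPM in members and 53.4 CPM in the others of the deepest 600. GCHFR was at 30 CPM in members and 208 CPM in the others of the deepest 600, and at 272 and 647 CPM in the shallowest. CD79A was lower in members in each of the 4 depth groups, from 574 against 914 CPM in the shallowest to 266 against 416 CPM in the deepest. YPEL3 came close to level in the shallowest 600, with 306 CPM in members and 369 CPM in the others, a log2 ratio of -0.27 whose interval held 0 (-0.66 to 0.09).

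**Figure D4:**
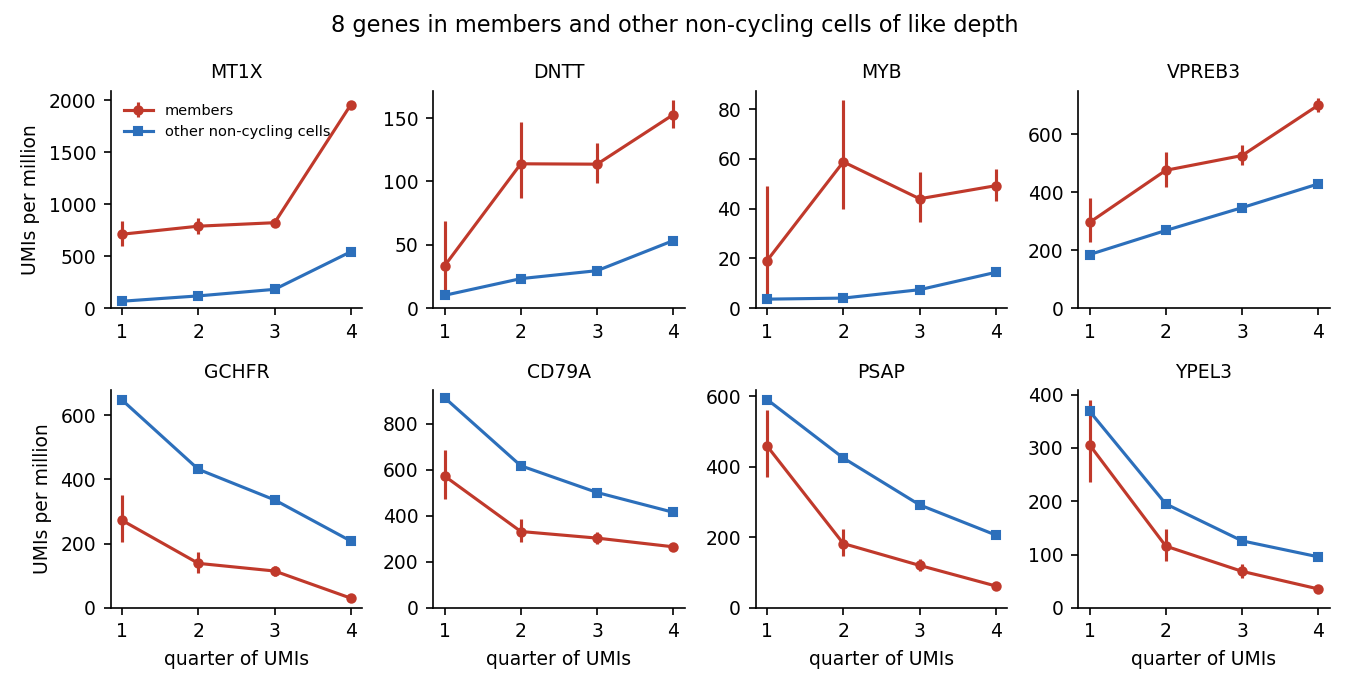
Levels of 8 genes (y axes, CPM) in members (circles, exact Poisson 95% intervals) and the other non-cycling cells (squares) in 4 equal groups of 600 cells by UMIs per cell (x axes, shallow to deep). For GCHFR members lie at 272 CPM in the shallowest and 30 CPM in the deepest group, below the others in both.

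Counted per cell, with each cell thinned at random to 6500 UMIs, a UMI of MT1X was found in 86.0% of 472 members and 51.5% of 1688 other non-cycling cells. The thinned cells held a median of 5 and 1 UMIs of MT1X. Without thinning the shares were 91.0% in members and 60.4% in the others. A UMI of MYB was found in 20.6% of members and 3.32% of the others, and one of DNTT in 33.0% and 11.4%. For GCHFR the share was 23.7% of members and 69.7% of the others, while the cycling cells stood at 11.0%. In the control cells of equally low P a GCHFR UMI was found in 0 of 147 thinned cells (exact upper bound 2.48%) and 0.680% of unthinned ones, at a median of 10159 UMIs, and the level of free RNA in the droplets of the library labelled RUNX1 was not measured. Thinning left out 16 members and 224 of the others.

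The members were not alike. Clustered by themselves without the genes of the rule, they fell into 4 clusters of 160, 136, 120 and 72 cells, given here by number. The clustering used all these genes, so the levels are a description. Cluster 1 was led by NAPSB, SPIB and TNFRSF13B, which binds the cytokines BAFF and APRIL, with SPIB at 290 CPM in cluster 1 and 29.4 CPM in cluster 2. Cluster 2 was led by RAG1 and DNTT. RAG1 was at 41.8 CPM in cluster 2 and between 0.655 and 4.67 CPM in the others, which were 101 UMIs in cluster 2 and 8, 1 and 6 UMIs in clusters 1, 3 and 4. DNTT was at 299 CPM in cluster 2, MYB at 104 CPM, IL7R at 280 CPM and MT1X at 3274 CPM, close to the 3486 CPM of the control cells of equally low P, while GCHFR was at 1.66 CPM. RUNX1 was at 45.6 CPM in cluster 2 and between 18.3 and 28.0 CPM in the others. Cluster 3 was led by ABLIM1 and FBXO32, and held 202 CPM of CD96, 153 CPM of GATA3, a factor of T cells and other lineages, 139 CPM of GCHFR and 475 CPM of CD79A, with 0.655 CPM of RAG1. Cluster 4 was led by KCNJ12, a potassium channel, and IGLV6-57, with GZMA, a granzyme, at 170 CPM.

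**Figure D5:**
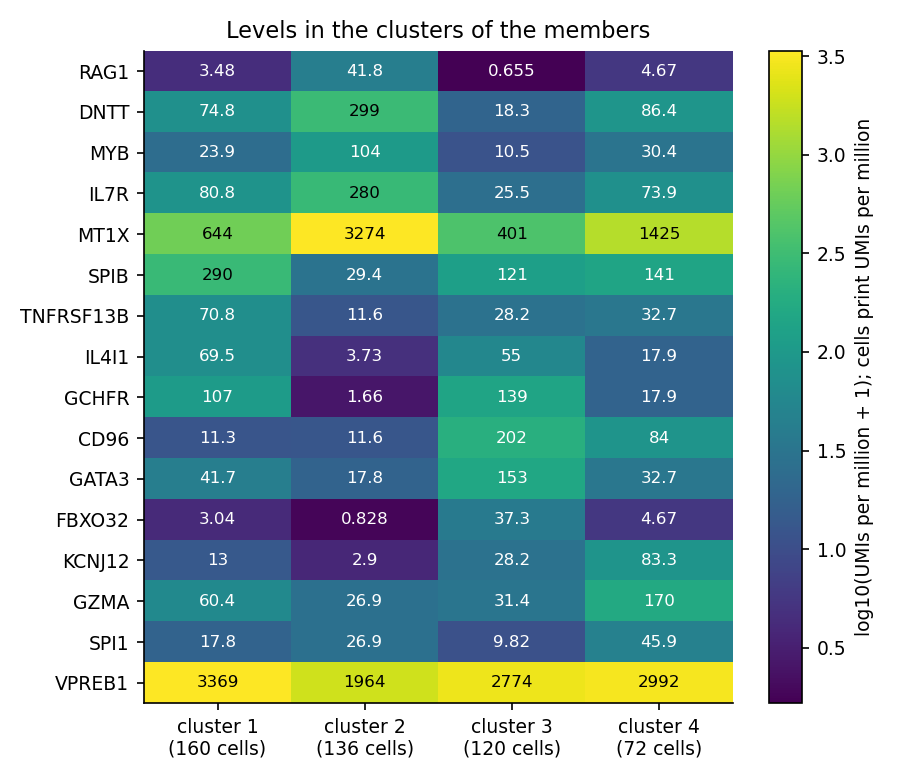
Levels of 16 genes (rows) in the 4 clusters of members (columns); each cell of the map prints CPM and its colour is log10 of that value plus 1. RAG1 stands at 41.8 CPM in cluster 2 and at 3.48, 0.655 and 4.67 CPM in clusters 1, 3 and 4.

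Depth and P moved with the clusters. The median cell held 14109.5, 17314, 12831 and 17708 UMIs in clusters 1 to 4, and P was 0 in 70.6%, 44.1%, 75% and 50% of their cells. Across all members, the 189 with P above 0 had 2018 CPM of MT1X and the 299 with P of 0 had 1228 CPM. GCHFR was at 28.4 CPM in the members with P above 0 and 92.4 CPM in those with P of 0. MYC was nearly level between them, at 561 and 507 CPM.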

How the data were processed

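Single-cell RNA-seq of the 2 libraries was used, and ChIP-seq was not analysed here. The authors deposited raw counts of human UMIs per gene and barcode with no normalization, made with Cell Ranger 3.0.2 on hg19 and mm10 per the submitters' processing notes, from lanes that pooled human and mouse cells, and a deposited table of human and mouse counts per barcode, whose human totals matched the matrix for all 5491 barcodes of the library labelled RUNX1. Members and gene lists were chosen with earlier results of these data known.

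UMIs were summed over the cells of a group and expressed per total as CPM. The total was 7527481 UMIs in members and 21291328 in the other non-cycling cells, so 3 UMIs, the floor used against a count of 0, were 0.399 and 0.141 CPM. A gene was measured if 1 of the compared groups reached 10 CPM, and ratios had no pseudocount. Levels have exact Poisson, shares exact Clopper-Pearson and ratios exact conditional binomial intervals. The other non-cycling cells were split by C1orf141, LINC00967 or STON1-GTF2A1L, then by chemokines, then by FCER1G. Control cells of equally low P passed the same filter with P at or below that of the non-cycling cells. Doublets were not called or removed.

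Named genes were those of the rule, the 12 highest and 12 lowest ratios over the other non-cycling cells with an interval that left out 0, up to 3 per list with the largest ratios in size, and the 6 highest and 6 lowest over the control. Y-linked genes, XIST and clone identifiers were left out. MT2A, MT1F, CD99, DUSP1, VPREB1 and the genes given for clusters or as cell type markers were chosen after their values were seen. Clusters used counts scaled to 10000, 2000 variable genes, 10 principal components, 20 neighbours and Leiden at resolution 0.5 in scanpy 1.11.5. Genes leading a cluster were at 30 CPM or more in or outside it and ranked by ratio with 1 CPM added. edgeR 4.0.16 (R 4.3.3) gave the TMM factors. Ratios were tested on simulated counts. Sums and intervals used scipy 1.17.1 and numpy 2.4.6 with pandas 2.3.3 under Python 3.11.15. Gene positions are from GENCODE v44lift37 for 55538 of 57905 genes. Alternatives changed the rule, scaling, gene floor and weighting of cells.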

Additional observations from a re-analysis of the deposited data

Results flagged for a closer look

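Barcodes that failed the cell filter were used in no comparison. In the library labelled RUNX1, 185 of the 691 barcodes left out met the limits of the rule on P, FCER1G, the chemokines and the C1orf141 set, with a median of 2168 UMIs and 18.1% mitochondrial UMIs. They drew attention because SPIB stood at 131 CPM in them (106 to 159), against 0 UMIs in 116 such barcodes of the control (0 to 14.2 CPM). GCHFR was at 151 CPM in these barcodes of the library labelled RUNX1 and at 0 UMIs in those of the control, MT1X at 633 and 2989 CPM, and VPREB1 at 2145 and 1016 CPM. Whether they are damaged or small cells was not tested.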

How the results depend on the processing

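No paired analysis was possible because each group was 1 library with no replicates. A stricter limit on P left 255 members and 1345 other non-cycling cells, and a mitochondrial limit of 10% left 13 members and 286 others. The share of members was 5.33%, 8.67%, 22.8% and 44.5% in 4 equal groups by UMIs, shallow to deep. Against the 84 genes at least 2-fold higher and 286 lower than in the other non-cycling cells, a floor of 5 CPM gave 127 and 450, a floor of 50 CPM 24 and 74, the same spread of UMIs 46 and 103, and the mitochondrial limit of 10% 1086 and 1496. Totals without mitochondrial and ribosomal protein genes gave 143 higher, and TMM and median-of-ratios scaling gave 118 and 119 higher and 220 lower under each.

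Alternatives for the comparison with control cells of equally low P were chosen after seeing the data. Against 349 higher and 310 lower, a floor of 5 CPM gave 641 and 470, a floor of 50 CPM 59 and 120, the stricter P limit 562 and 467, the mitochondrial limit of 10% 2039 and 1405, TMM 446 and 229, and median of ratios 438 and 230. Totals without mitochondrial and ribosomal protein genes gave 798 higher and 269 lower.

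Of 67 named genes past 2-fold, 850 of 858 values under the alternatives had the same sign. The 8 others all came from the 13 members under the mitochondrial limit of 10%, where the log2 ratio was 1.04 for IL18RAP, 0.61 for LINC01087, 0.79 for PDK1, 0.096 for FGFBP2, 0.56 for KLF9, 0.32 for ABLIM1, 0.54 for LSP1 and 1.24 for KLF2. The median of the FOXO and quiescence list was 0.0085 there. Few UMIs in 13 cells limit these values.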

Other observations

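UMIs of 8 Y-linked genes, summed, were spread unevenly over the members and were looked at after the clusters were seen. At least 1 such UMI was found in 46.3% of members (41.8 to 50.9), in 38.8% of the other non-cycling cells and in 98.0% of the control cells of equally low P. Among clusters of members the share was 8.12% in cluster 1, 23.5% in cluster 2, 90.8% in cluster 3 and 100.0% in cluster 4. Among the other non-cycling cells it was 23.4% in the FCER1G cells, 19.4% in the chemokine cells and 89.2% in the C1orf141 set cells. Clusters 3 and 4 were therefore near the C1orf141 set cells in this measure although no member held a UMI of that set, and what the split reflects was not tested.

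Promoters with the letters TGTGGT or TGCGGT on either strand, the core that RUNX factors bind, were 14.9% of 74 promoters of the genes at least 2-fold higher in members than in the other non-cycling cells, 20.4% of 313 promoters of the genes at least 2-fold lower, and 19.0% of 8772 promoters of all measured genes. These are counts of letters in 300 bases of RefSeq sequence on GRCh38.p14, and binding was not measured here.

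Interferon genes had a median near that of all genes. Of 18 measured, 5 were lower and 1 higher by 0.5 or more than in the other non-cycling cells, against 16.4% lower and 6.37% higher of all genes, with a median of -0.16 against -0.12. IRF7, a regulator of interferon genes, had 25.2 CPM in members and 70.3 CPM in the other non-cycling cells, and MX1, an antiviral GTPase, 5.85 and 18.6 CPM. COL9A3, a collagen chain, had 232 CPM in members, against 55.7 CPM in the other non-cycling cells, 235 CPM in the cycling cells and 194 CPM in the control cells of equally low P.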
